A study of Homo sapiens with 24 samples.

Results

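The nuclear-encoded subunits of the mitochondrial respiratory chain and ATP synthase were followed in Huh-7 cells, an established human hepatocellular carcinoma line, during hypoxia and under knockdown of HIF1A or NDRG3. The members were a list of 49 gene symbols, and a gene was read by the brightest of its probes that passed a detection filter. Of the 49, 46 were measured on the bead arrays, out of 15246 genes measured in all. They comprised 21 of 21 listed subunits of complex I, 3 of 4 of complex II, 6 of 7 of complex III, the electron carrier cytochrome c, 9 of 10 of complex IV and 6 of 6 of ATP synthase, complex V. SDHB, UQCRFS1 and NDUFA4, which is counted here with complex IV, were not analysed here.

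Stable lines carried short hairpin RNA against HIF1A (shHIF1A), NDRG3 (shNDRG3) or, as the control, GFP (shGFP), and the labels name lentiviral delivery for the hairpins against HIF1A and NDRG3. Cells were kept in 1% O2 for a set number of hours. There were 3 arrays of shHIF1A at 3 h and 2 at each of 6 h and 12 h. There were 2 arrays of shNDRG3 at each of 6 h, 12 h and 24 h. For shGFP there were 2 arrays in normoxia, 3 at 3 h and 2 at each of 6 h, 12 h and 24 h. Normoxia arrays of the knockdown lines were not analysed here, and the labels do not say how many hairpins or clones each knockdown represents. A difference between lines under hypoxia therefore cannot be told apart from one present before it. The normoxia arrays form a single group with no hour in their titles, so no hypoxia time has a normoxia group of its own. The time spent at 1% O2 and the time in culture therefore cannot be told apart either.

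Complex I takes electrons from NADH and complex II from succinate, and both pass them through ubiquinone to complex III. Cytochrome c carries them to complex IV, where oxygen is reduced, and the proton gradient built on the way drives ATP synthesis by complex V. In many cell types hypoxia-inducible factors are known to lower mitochondrial oxygen use by diverting pyruvate and exchanging subunits, while NRF1 and GABP, a factor of the ETS family, are known activators of nuclear genes for the chain. HIF1A encodes the oxygen-regulated subunit of such a factor, and NDRG3 belongs to the N-myc downstream-regulated gene family.

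Promoter sequences are shown for the members with the largest differences: CYCS and ATP5PB, which differed most between the knockdown lines and shGFP, and COX5A, which was lowest relative to normoxia after 24 h in the quantile-normalised data. They are RefSeq promoters of build GRCh38.p14, 250 bases before to 50 after the gene start, written 5' to 3' on the gene's strand: CYCS at chr7:25125211-25125510 (minus strand), ATP5PB at chr1:111449214-111449513 (plus) and COX5A at chr15:74938024-74938323 (minus). Capitals mark the NRF1 core GCATGCGC and the HIF core, ACGTG or GCGTG, on either strand (CACGT or CACGC when read from the other strand), with overlapping matches joined.
CYCS: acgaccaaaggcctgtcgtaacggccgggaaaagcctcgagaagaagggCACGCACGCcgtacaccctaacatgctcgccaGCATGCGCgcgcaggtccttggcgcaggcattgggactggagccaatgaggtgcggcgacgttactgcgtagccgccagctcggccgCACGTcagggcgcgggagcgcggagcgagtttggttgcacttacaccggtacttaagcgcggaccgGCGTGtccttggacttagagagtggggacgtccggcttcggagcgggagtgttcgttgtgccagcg
ATP5PB: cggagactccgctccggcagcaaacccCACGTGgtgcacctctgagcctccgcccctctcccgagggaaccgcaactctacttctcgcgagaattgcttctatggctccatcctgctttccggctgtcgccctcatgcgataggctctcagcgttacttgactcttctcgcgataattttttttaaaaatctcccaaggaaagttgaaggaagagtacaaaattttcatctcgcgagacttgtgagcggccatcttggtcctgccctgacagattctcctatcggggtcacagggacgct
COX5A: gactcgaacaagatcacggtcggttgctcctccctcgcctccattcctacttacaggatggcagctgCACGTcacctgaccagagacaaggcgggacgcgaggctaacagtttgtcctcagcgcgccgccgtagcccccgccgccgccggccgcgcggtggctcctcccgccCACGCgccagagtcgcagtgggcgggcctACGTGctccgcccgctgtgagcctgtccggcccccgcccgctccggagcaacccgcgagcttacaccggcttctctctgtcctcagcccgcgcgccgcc
The NRF1 core stood 169 bases upstream of the CYCS start and had no match in the ATP5PB or COX5A window. Among the 39 member genes matched in the promoter table, which include SDHB and UQCRFS1, it was found in 10 (25.6%), against 3.1% of all 35116 promoters. The ETS core CCGGAAG was found in 11 (28.2%, against 10.3%) and the YY1 core ATGGCGGC in 6 (15.4%, against 3.0%). The HIF core was found in 24 members (61.5%, against 48.4%), and its form ACGTG in 8 (20.5%, against 21.4%). The E box CACGTG, which overlaps that form, was found in 2 (5.1%, against 7.3%). These are letter matches in a fixed window and not binding sites. The genes are spread over 19 chromosomes.

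The array medians of the deposited signals lay between 115 and 150 and dimmed over the shGFP time course, to 115 and 117 after 24 h, against 145 and 148 in normoxia. Levels are therefore given as log2 of quantile-normalised signals, and values after ± are standard errors of a log2 change from limma. Adjusted p-values are over all 15246 genes, with a threshold of 0.05. The members were bright among these genes, of which 95.9% had a mean level at or below that of the median member. The mean of 39 members lay over 16 times the array median. The part of brightness in differences between members and all genes, or between complexes, was not tested. Arrays of a group correlated at r = 0.9798 to 0.9973 across genes. Array 2 of shHIF1A at 3 h stood apart in the members, whose median level was 13.55 there, against 13.14 and 13.13 in the other arrays of its group. It differed from them by a median of 0.240 and 0.232 over the members. The shNDRG3 arrays at 24 h had the lowest correlation across all genes and a median member difference of 0.183 on the log2 scale. Results resting on these arrays are given with and without them, apart from calls shared between the knockdown lines in pairs with shNDRG3 at 24 h. The p-values set a difference between group means against the spread of arrays within groups. The labels do not say whether replicates were separate cultures, so that spread may be only technical. In that case the p-values would overstate the evidence for a difference between cultures. In RNA from bulk cells, fewer cells of a kind and less RNA per cell cannot be told apart. The targeted transcripts were lower in their own lines, HIF1A by -1.48 ± 0.10 in shHIF1A and NDRG3 by -2.18 ± 0.07 in shNDRG3. Of 9 hepatocyte markers with a listed probe, 0 lay above 2 times the array median in normoxia. Albumin was the highest of them, at 0.92 log2 units above that median. AFP, APOA1, APOA2, APOB and TF lay below the array median in each group. The cells are named from the labels, and these marker levels do not show a hepatocyte identity. Of the markers of other cell types, 1 of 7 for fibroblasts (COL1A1), 1 of 5 for endothelium (PECAM1) and 1 of 5 for blood cells lay above 2 times the median. The last was CD68, a lysosomal glycoprotein also made outside the blood, whereas the defining leukocyte markers PTPRC and CD3E lay below the array median in each group.

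**Figure D1:**
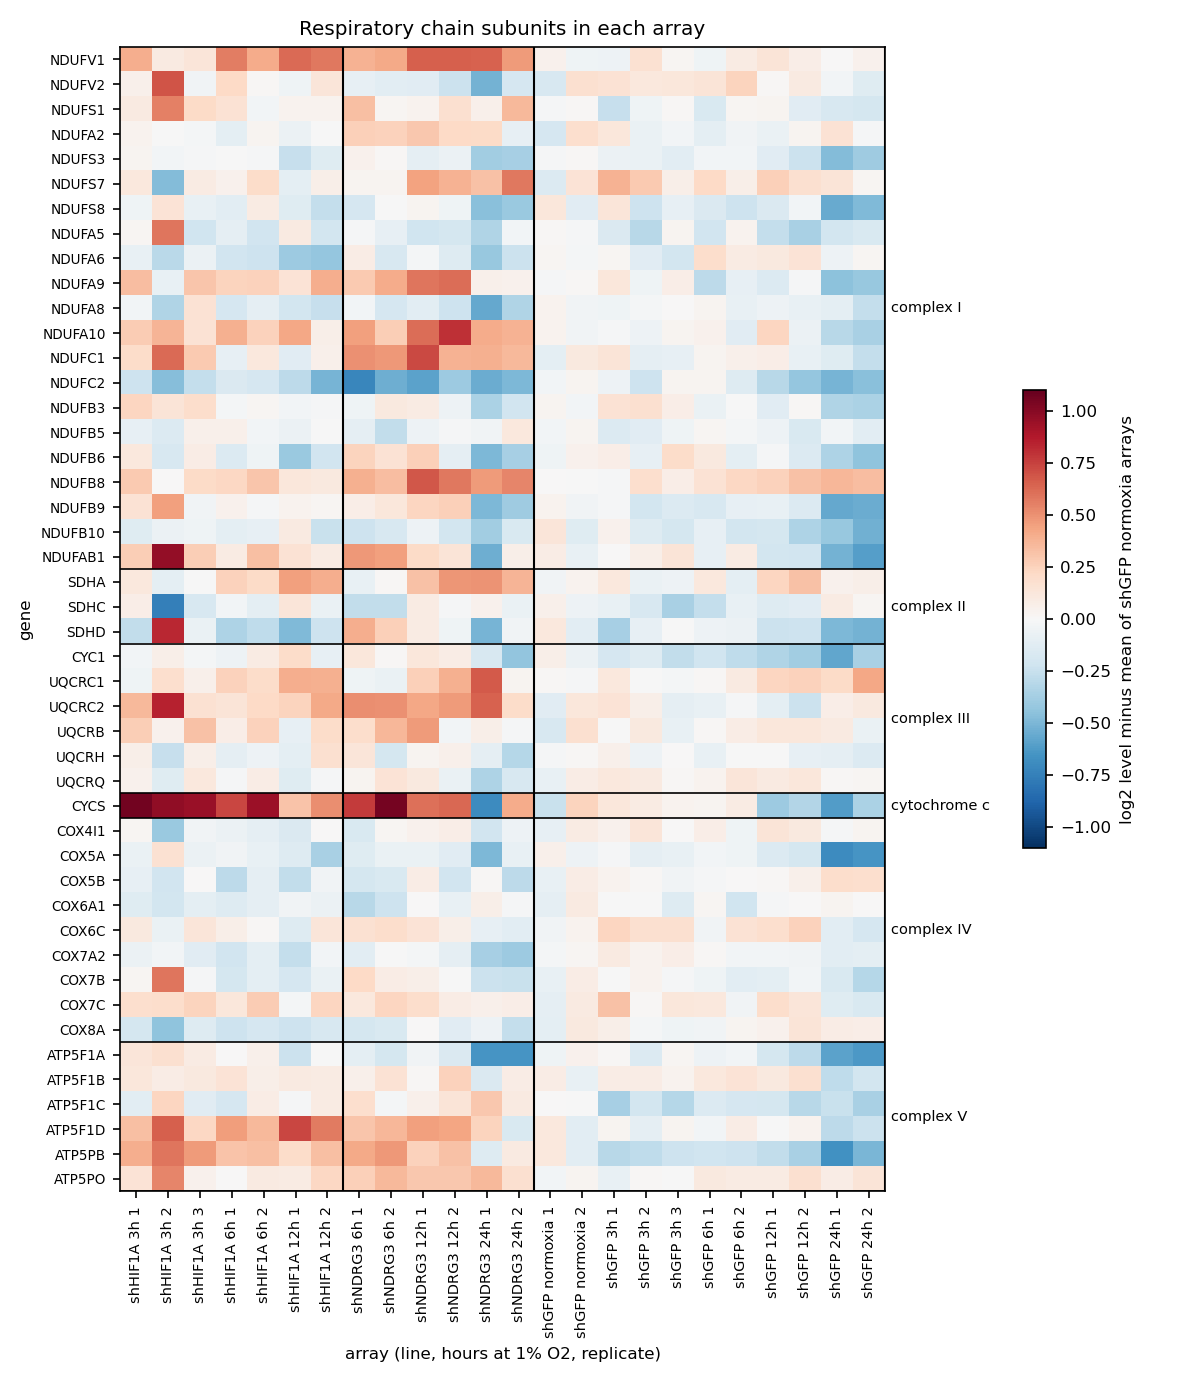
Heat map of the 46 measured subunits (rows, by complex) in the 24 arrays (columns, by line, hours at 1% O2 and replicate). Colour gives the log2 level minus the gene's mean in the shGFP normoxia arrays. CYCS and ATP5PB are red across most knockdown arrays, complex I is mostly blue in the shGFP 24 h arrays, and shHIF1A 3 h array 2 differs from the other arrays of its group.

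After 24 h in 1% O2, 14 of the 46 subunits were lower and 1 was higher than in normoxia in the shGFP line. The lower share was 30.4%, against 24.2% of all genes, and the higher share 2.17%, against 21.1%. The median change of the members was -0.18 on the log2 scale, against -0.00 over all genes. Changes of single subunits were below 2-fold in either direction, from -0.67 for COX5A to 0.35 for NDUFB8, but with the signals as deposited 10 members were more than 2-fold lower. The shGFP arrays at 24 h did not overlap those in normoxia for 5 members that lay above and 28 that lay below, where the shares among all genes were 34% and 36.1%. Of 5 endothelial markers 3 were higher and 2 lower at 24 h, and CD68 was higher (0.69). The summed signal of the blood markers was 11565 and 12230 at 24 h, against 7221 and 8049 in normoxia. Most of it was CD68, at 5.75 log2 units above the array median in normoxia, where CD14, the next, lay at 0.44. CD14 (0.01) and HBB (-0.28) did not pass at 24 h. The sum of the endothelial markers was 999 and 1013 at 24 h, against 842 and 872 in normoxia, while those of fibroblast and hepatocyte markers overlapped. Their part in the result was not tested.

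Complex I held 10 of the 14 lower subunits and the single higher one, with a median of -0.20. In the NADH-oxidising N module, 0 of 4 passed the test in limma, and the values lay between -0.18 for NDUFS1 and 0.07 for NDUFA2. In the ubiquinone-reducing Q module 3 of 6 fell, namely the iron-sulfur subunit NDUFS8 (-0.52 ± 0.12), NDUFA9 (-0.44 ± 0.12) and NDUFS3 (-0.43 ± 0.09). In the membrane arm 7 of 11 fell. NDUFAB1, the mitochondrial acyl carrier protein, had log2 levels of 12.70 and 12.61 after 24 h, against 13.30 and 13.14 in normoxia (-0.56 ± 0.18, adjusted p = 0.0129). The accessory subunit NDUFB9 had 12.70 and 12.72 after 24 h, against 13.30 and 13.22 in normoxia (-0.55 ± 0.12, adjusted p = 0.000446). For both genes the 24 h arrays lay below the normoxia arrays without overlap.

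The other accessory subunits of the membrane arm that fell were NDUFC2 (-0.49 ± 0.12, close to the array median, where changes can be understated), NDUFB10 (-0.47 ± 0.12), NDUFB6 (-0.39 ± 0.13), NDUFB3 (-0.34 ± 0.10) and NDUFA10 (-0.33 ± 0.13). The other probe of NDUFA10 gave -0.06, and its call was lost with each of the 4 arrays left out in turn, as was that of NDUFAB1 without normoxia array 1 or 24 h array 2. NDUFB6 lost its call without normoxia array 2 or 24 h array 2, and NDUFB10 without normoxia array 1. NDUFB8, an accessory subunit of the same arm, had log2 levels of 14.14 and 14.10 after 24 h, against 13.77 and 13.76 in normoxia, and rose by 0.35 ± 0.10 (adjusted p = 0.00672), but its change was -0.11 with the signals as deposited and 0.23 (adjusted p = 0.118) with median-centred arrays. Its direction thus depended on the scaling.

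In complexes II and III, 1 of 9 measured subunits passed. None of the 3 measured complex II subunits passed in limma (1 at an unadjusted p under 0.05), and the membrane anchor SDHD, at 10.34 and 10.31 after 24 h against 10.95 and 10.72 in normoxia, gave -0.51 ± 0.22 (adjusted p = 0.0655). The flavoprotein SDHA gave 0.06 ± 0.11. In complex III, cytochrome c1 (CYC1) fell to 12.58 and 12.79 after 24 h, against 13.21 and 13.08 in normoxia (-0.46 ± 0.12, adjusted p = 0.00189). The core protein UQCRC1 gave 0.32 ± 0.14 (adjusted p = 0.0681) and the other 4 members -0.12 to 0.09. A dimmer probe of UQCRB gave -0.44, where the brightest gave 0.01. Cytochrome c itself (CYCS) had 7.93 and 8.19 after 24 h, against 8.30 and 8.78 in normoxia, and did not pass (-0.48 ± 0.21, adjusted p = 0.0683), although its arrays did not overlap.

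In complex IV a single subunit of 9 passed. COX5A, an accessory subunit of the enzyme, had log2 levels of 13.70 and 13.75 after 24 h, against 14.46 and 14.34 in normoxia, and was 1.59-fold lower (-0.67 ± 0.12, adjusted p = 5.73e-05). The other 8 lay between -0.24 for COX7B and 0.19 for COX5B. In complex V, 2 of 6 fell. ATP5F1A, the alpha subunit of the F1 head, had 13.87 and 13.83 after 24 h, against 14.41 and 14.51 in normoxia, which was 1.53-fold lower (-0.61 ± 0.10, adjusted p = 2.27e-05), and its other probe gave -0.91. ATP5PB, the b subunit of the peripheral stalk that holds the head still, had 13.07 and 13.23 after 24 h, against 13.85 and 13.62 in normoxia (-0.59 ± 0.11, adjusted p = 8.69e-05). The gamma subunit ATP5F1C gave -0.30 ± 0.13 (adjusted p = 0.0538), and ATP5F1B, ATP5F1D and ATP5PO lay between -0.26 and 0.11. The other probe of ATP5F1D gave -0.49. No test of a difference between complexes was made.

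At the earlier times fewer members passed. After 3 h and 6 h, 0 of 46 members passed in limma, where 1.48% and 4.87% of all genes did, and 2 and 1 members had an unadjusted p under 0.05. After 12 h, 3 were lower (6.52%, against 12.2% of all genes) and 1 was higher (2.17%, against 13%). These were NDUFC2 (-0.37), CYC1 (-0.36) and ATP5PB (-0.31) below, and above them NDUFB8 at 0.29 (adjusted p = 0.0439), which was -0.01 with the signals as deposited. Without normoxia array 1 none of the members passed at 12 h in limma, and without any normalisation, where the all-gene median was -0.25, 18 were lower and 0 higher (39.1% lower, against 31.7% of all genes). Between 6 h and 24 h in the same line, comparing arrays that were all hypoxic, 13 members were lower at 24 h and 0 higher (28.3% and 0%, against 21.3% and 18.5% of all genes), led by COX5A (-0.63), NDUFAB1 (-0.56) and ATP5F1A (-0.56). With any 1 of the 4 arrays left out, 7 members passed, and with the signals as deposited 31 (67.4% lower, against 39% of all genes).

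The count at 24 h depended on how arrays were scaled. Without normalisation the all-gene median was -0.41 and the members' median -0.65, and 43 members were lower and 0 higher (93.5% lower, against 59.3% of all genes). Median-centred arrays gave 20 lower and 0 higher (43.5% lower, against 29.3%), and arrays scaled to their 75th percentile 17 lower and 1 higher (37% lower, against 24.7%). Relative to the median of all genes, the members lay at -0.23 under these 3 scalings, against -0.18 after quantile normalisation. The 3 scalings differ only by a constant per array. Values relative to all genes are therefore the same under each by arithmetic, and their likeness is no support. Complexes I and V lay at -0.44 and -0.49 relative to all genes under these scalings, and complex IV at -0.12. Complexes II and III lay at -0.18 and -0.14 there, whereas after quantile normalisation their medians were 0.06 and 0.02, so their direction depended on the scaling.

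**Figure D2:**
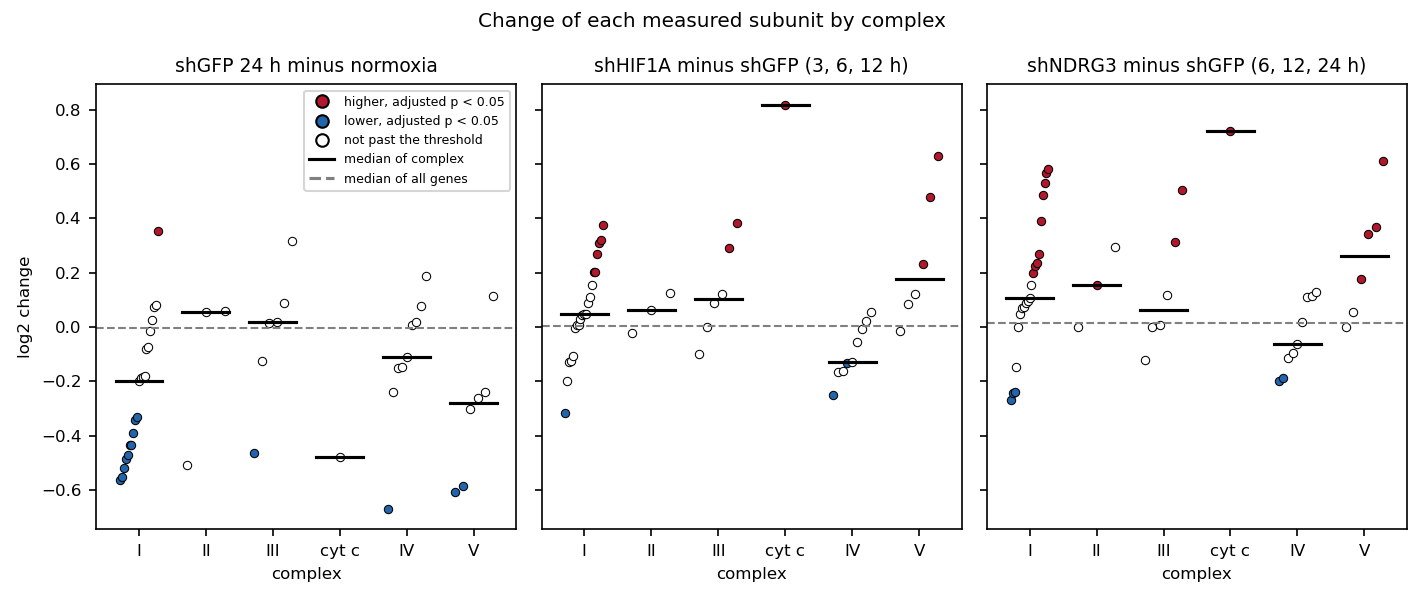
Log2 change of each measured subunit by complex (x axis) in 3 comparisons (panels), on quantile-normalised signals. Points are subunits, red or blue past the threshold, bars are the median of each complex and the dashed line is the median of all genes. Blue points gather in complex I after 24 h, CYCS lies highest in both knockdown panels, and the medians of complex IV lie below 0 in all panels, although in the shNDRG3 panel it was 0.00 to 0.06 under the 3 scalings without quantile normalisation.

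In the shHIF1A line, 12 of the 46 subunits were higher and 3 lower than in shGFP over 3 h, 6 h and 12 h (26.1% and 6.52%, against 19.2% and 18.8% of all genes). The median change was 0.05, against 0.00 over all genes. Under the 3 scalings without quantile normalisation the median was 0.12 to 0.14, or 0.12 above that of all genes, the same by arithmetic. There 13 or 14 were higher (28.3% to 30.4%, against 19.3% to 20.5% of all genes) and 1 was lower (2.17%, against 14.6% to 17%). With quantile normalisation, leaving out shHIF1A 12 h array 2 gave 6 lower and shHIF1A 3 h array 3 gave 5. The arrays did not overlap at any time for 5 members above shGFP and 1 below (11.6% and 12.7% of all genes). In the same comparison CD68 was lower (-1.70), and 3 of 5 endothelial markers were lower, VWF, PECAM1 and CDH5. The fibroblast markers were divided, with PDGFRB higher (0.68) and COL1A1 lower (-0.18). The summed signal of the blood markers, most of it CD68, was 2652 to 3796 in shHIF1A, against 7321 to 10855 in shGFP at the same times. The blood markers CD14 (-0.00) and HBB (-0.02) did not pass. The sum of the endothelial markers was 677 to 802 in shHIF1A, against 804 to 889 in shGFP. The sums of fibroblast and hepatocyte markers overlapped at 3 h and 6 h. At 12 h those of fibroblast markers were 1196 and 1231 in shHIF1A, against 1068 and 1088 in shGFP. Those of hepatocyte markers were 1140 and 1151 in shHIF1A at 12 h, against 1205 and 1231 in shGFP. The part of these markers in the result was not tested. CYCS led the members. It had log2 levels of 9.60, 9.51 and 9.49 at 3 h in shHIF1A, against 8.66, 8.63 and 8.58 in shGFP. At 6 h it had 9.27 and 9.48 in shHIF1A, against 8.57 and 8.63 in shGFP, and at 12 h 8.85 and 9.05 in shHIF1A, against 8.14 and 8.22 in shGFP. The 7 shHIF1A arrays lay above the shGFP arrays at each time, and the average difference was 1.76-fold (0.82 ± 0.11, adjusted p = 3.28e-06).

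Complex V followed, with 3 of 6 subunits higher and 0 lower. ATP5PB had 14.14, 14.32 and 14.20 at 3 h in shHIF1A, against 13.42, 13.46 and 13.51 in shGFP. At 6 h it had 14.04 and 14.06 in shHIF1A, against 13.52 and 13.50 in shGFP, and at 12 h 13.94 and 14.07 in shHIF1A, against 13.46 and 13.38 in shGFP. Its groups did not overlap at any time, and it was 1.55-fold higher (0.63 ± 0.06, adjusted p = 6.86e-09), with 0.80 by its other probe. The delta subunit ATP5F1D rose by 0.48 ± 0.07 (0.39 by its other probe) and the gamma subunit ATP5F1C by 0.23 ± 0.07, a call lost without shHIF1A 6 h array 2. The catalytic beta subunit ATP5F1B gave -0.01 and ATP5F1A 0.12, which did not pass.

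In complex III the core protein UQCRC2 (0.38 ± 0.09) and CYC1 (0.29 ± 0.06) were higher and 0 of 6 lower. UQCRH gave 0.00 by its brightest probe and 0.35 by its other one. In complex I, 6 of 21 were higher and 1 lower. The subunit that binds NADH and the flavin, NDUFV1, had 12.71 and 12.55 at 6 h in shHIF1A, against 12.09 and 12.23 in shGFP, and 12.76 and 12.72 at 12 h in shHIF1A, against 12.28 and 12.21 in shGFP. At 3 h its arrays overlapped (12.54, 12.24 and 12.27 in shHIF1A, against 12.09, 12.30 and 12.16 in shGFP), and the average was 0.38 ± 0.06 (adjusted p = 2.49e-05). NDUFAB1 (0.32 ± 0.10), NDUFA9 (0.31 ± 0.07), NDUFA10 (0.27 ± 0.07), NDUFB9 (0.20 ± 0.06) and NDUFS1 (0.20 ± 0.08) were also higher, and NDUFS1, which lay near the array median, lost its call under 2 scalings and without shHIF1A 3 h array 2 or 6 other single arrays.

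Lower in shHIF1A were NDUFA6, a complex I subunit of the LYR family, and 2 subunits of complex IV. NDUFA6 had 11.07 and 11.06 at 6 h in shHIF1A, against 11.48 and 11.38 in shGFP, and 10.88 and 10.86 at 12 h in shHIF1A, against 11.39 and 11.43 in shGFP (average -0.32 ± 0.06, adjusted p = 0.000187). Its arrays overlapped at 3 h (11.20, 10.99 and 11.22 in shHIF1A, against 11.31, 11.16 and 11.08 in shGFP). COX8A lay below shGFP without overlap at each time, at 14.51, 14.26 and 14.56 at 3 h in shHIF1A, against 14.76, 14.68 and 14.66 in shGFP (average -0.25 ± 0.06, adjusted p = 0.00186). COX7A2 gave -0.13 ± 0.05 (adjusted p = 0.0483), a call that 18 of 25 alternatives did not keep. Both complex IV calls were lost under the 3 scalings without quantile normalisation, where they lay between -0.16 and -0.05. No complex IV subunit was higher. By the brightest probes none of complex II passed in limma, with SDHA at 0.13 ± 0.06, SDHC at 0.06 and SDHD at -0.02. The other probe of SDHA gave 0.21 and that of SDHC 0.18. Both passed in limma with adjustment over all kept probes (adjusted p = 0.0211 and 0.011), so the reading of complex II depended on the probe.

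At single times, 11 members were higher and 1 lower at 3 h (11.8% and 13.3% of all genes), 6 and 1 at 6 h (8.39% and 9.75%), and 7 and 1 at 12 h (10.9% and 12.4%). CYCS was the highest at each time (0.91, 0.78 and 0.77), and COX8A (-0.26) at 3 h and NDUFA6 at 6 h and 12 h (-0.36 and -0.54) the lowest. ATP5PB, ATP5F1D and CYCS were higher at all 3 times. The count at 3 h rested on array 2 of shHIF1A, without which 3 members were higher, CYCS, ATP5PB and NDUFA9, and 0 lower, and 6 members passed with the compared arrays fitted alone. Without it 11 members were higher and 3 lower on average over the times. No member changed its difference between 3 h and 12 h in limma (3 had an unadjusted p under 0.05, and 1.23% of all genes passed). Leaving out any array of the compared groups gave 1 to 3 calls at 6 h and 5 or 6 at 12 h. Within the shHIF1A line 2 members were higher and 2 lower at 12 h than at 3 h (11.1% and 10.7% of all genes), namely SDHA (0.43) and NDUFV1 (0.39), and CYCS (-0.58) and NDUFC1 (-0.41). CYCS and NDUFC1 did not pass without array 2 at 3 h, and with 1 array left out 1 to 6 members passed. In shGFP 1 was higher, SDHA (0.28), and 0 lower (10.6% and 10.8% of all genes), and with 1 array left out 0 or 1 passed.

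In the shNDRG3 line, 17 of the 46 subunits were higher and 5 lower than in shGFP over 6 h, 12 h and 24 h (37% and 10.9%, against 22.7% and 20.9% of all genes). The median change was 0.11, against 0.02 over all genes. Scaling to the 75th percentile, which moved the median of all genes to 0.07, gave 30 higher and 2 lower (65.2% higher, against 25.8% of all genes), the signals as deposited 19 and 2 (41.3%, against 19.2%), and median-centred arrays 17 and 2 (37%, against 18.1%). The 2 lower were 4.35%, against 18% to 20.4% of all genes. Leaving out shGFP 12 h array 2 or shNDRG3 12 h array 2 also gave 2 lower, and leaving out shGFP 6 h array 2 gave 3. The arrays did not overlap at any time for 13 members above shGFP and 3 below (14.8% and 14% of all genes). This comparison shares its shGFP arrays at 6 h and 12 h with that of shHIF1A and its 24 h arrays with the shGFP time course, so likeness between their values is not independent. CD68 (-1.79), PECAM1 (-0.91) and VWF (-0.74) were lower and PDGFRB (0.68) higher. LUM, another fibroblast marker, was lower (-0.24), as was the blood marker CD14 (-0.16). The endothelial marker TEK (-0.04) and the blood marker HBB (0.15) did not pass. The summed signal of the blood markers, most of it CD68, was 2027 to 6680 in shNDRG3, against 8143 to 12230 in shGFP at the same times. The sums of endothelial markers were 583 to 854 in shNDRG3, against 804 to 1013 in shGFP, and lay below shGFP at each matched time. Those of fibroblast markers lay above shGFP at 12 h (1134 and 1152, against 1068 and 1088) and 24 h (1196 and 1284, against 1066 and 1136). They overlapped at 6 h. The sums of hepatocyte markers lay above shGFP at 6 h (1227 and 1273, against 1188 and 1201) and 24 h (1178 and 1188, against 1138 and 1164). At 12 h they overlapped. Their part in the result was not tested here either.

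CYCS had 9.31 and 9.59 at 6 h in shNDRG3, against 8.57 and 8.63 in shGFP, and 9.15 and 9.17 at 12 h in shNDRG3, against 8.14 and 8.22 in shGFP. At 24 h the shNDRG3 arrays were far apart, at 7.85 and 8.94, against 7.93 and 8.19 in shGFP, and the difference there did not pass (0.34 ± 0.21, adjusted p = 0.251). Without array 1 it was 0.88 (adjusted p = 5.86e-05) and without array 2 -0.21 (adjusted p = 0.382), so its direction there rested on 1 array. Over the times it was 1.65-fold higher (0.72 ± 0.12, adjusted p = 2.7e-05). The 6 h levels of ATP5PB were 14.15 and 14.21 in shNDRG3, against 13.52 and 13.50 in shGFP. The 12 h levels were 13.98 and 14.06 in shNDRG3, against 13.46 and 13.38 in shGFP, and the 24 h levels 13.59 and 13.83 in shNDRG3, against 13.07 and 13.23 in shGFP. Its groups did not overlap at any time, and it was 1.53-fold higher (0.61 ± 0.06, adjusted p = 1.77e-08; 0.72 by its other probe). In complex V, 4 of 6 were higher and 0 lower, with ATP5F1C (0.37 ± 0.07), ATP5F1D (0.34 ± 0.08, and 0.70 by its other probe) and the stalk subunit ATP5PO (0.18 ± 0.07, adjusted p = 0.0462). The call of ATP5PO was lost with any of 11 single arrays left out. ATP5F1A (-0.00) and ATP5F1B (0.05) did not pass.

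Complex I had 9 of 21 subunits higher and 3 lower. NDUFA10 had log2 levels of 10.74 and 10.56 at 6 h in shNDRG3, against 10.34 and 10.16 in shGFP. The 12 h levels were 10.90 and 11.09 in shNDRG3, against 10.53 and 10.22 in shGFP, and the 24 h levels 10.70 and 10.67 in shNDRG3, against 9.98 and 9.93 in shGFP. The arrays did not overlap at any time (0.58 ± 0.07, adjusted p = 4.36e-07; 0.36 by its other probe). NDUFA9 gave 0.57 ± 0.07 (adjusted p = 5.35e-07), NDUFC1 0.53 ± 0.08 (adjusted p = 6.69e-06) and NDUFV1 0.49 ± 0.07 (adjusted p = 1.15e-06), each also without overlap at any time. The others that were higher were NDUFAB1 (0.39), NDUFS1 (0.27), NDUFB9 (0.23), NDUFB8 (0.22) and NDUFA2 (0.20). NDUFV2, an iron-sulfur subunit of the N module, was lower (-0.27 ± 0.10, adjusted p = 0.0289), as were NDUFA6 (-0.24 ± 0.07) and NDUFC2 (-0.24 ± 0.07). NDUFV2 lost its call under the 3 scalings without quantile normalisation and with any of 6 single arrays left out. NDUFA2 lost its call in 5 of 23 alternatives and NDUFS1 in 3 of 23.

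In complex III, UQCRC2 lay above shGFP without overlap at each time. Its levels were 11.46 and 11.46 at 6 h in shNDRG3, against 10.87 and 10.94 in shGFP. At 24 h they were 11.60 and 11.16 in shNDRG3, against 11.02 and 11.06 in shGFP (average 0.50 ± 0.09, adjusted p = 8.52e-05). CYC1 was higher by 0.31 ± 0.07, and 0 of 6 were lower. In complex II the flavoprotein SDHA gave 0.15 ± 0.06, a value at the threshold that 14 of 23 alternatives did not keep, and 0.40 by its other probe. SDHD gave 0.29 ± 0.13 (adjusted p = 0.069) and SDHC 0.00. In complex IV, COX5B (-0.20 ± 0.07, adjusted p = 0.0228) and COX8A (-0.19 ± 0.07, adjusted p = 0.0215) were lower and 0 of 9 higher. Under the 3 scalings without quantile normalisation COX5B and COX8A lay between -0.08 and -0.00 and did not pass, and the median of complex IV was 0.00 to 0.06, against -0.06.

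At single times, 8 members were higher and 1 lower at 6 h (12.1% and 13.2% of all genes), 12 and 0 at 12 h (13.4% and 14%), and 9 and 3 at 24 h (17.2% and 16.1%). CYCS was the highest at 6 h (0.85) and 12 h (0.98) and NDUFA10 at 24 h (0.73), and NDUFC2 at 6 h (-0.57) and COX5B at 24 h (-0.33) were the lowest. ATP5PB, NDUFA10, NDUFA9, NDUFC1 and NDUFV1 were higher at all 3 times. The 24 h call of COX5A (0.38), whose shNDRG3 arrays lay at 13.90 and 14.32 against 13.70 and 13.75 in shGFP, was lost without array 2. With any 1 array left out, 4 to 6 members passed at 6 h, 7 to 9 at 12 h and 7 to 14 at 24 h. At 24 h the counts were 12 higher and 2 lower without shNDRG3 array 1, and 10 and 3 without array 2, whereas 2 members passed with array weights or with the compared arrays fitted alone. The change of the difference between 6 h and 24 h passed for 1 member, NDUFC2 (10.7% of all genes), and not without shNDRG3 24 h array 2, when that of CYCS passed instead (-1.06). Without array 1, COX5A, NDUFA2 and NDUFC2 passed. Within the shNDRG3 line, 16 members were lower and 4 higher at 24 h than at 6 h (20.8% and 19.3% of all genes). CYCS fell most (-1.06 ± 0.21), followed by NDUFAB1 (-0.70), NDUFB6 (-0.63) and SDHD (-0.60), and SDHA (0.47), NDUFS7 (0.42), UQCRC1 (0.41) and COX6A1 (0.29) rose. Without 24 h array 1 the fall of CYCS was -0.51 (adjusted p = 0.013), and NDUFAB1 (-0.40) and SDHD (-0.37) did not pass. Without 24 h array 2 it was -1.60 (adjusted p = 3.58e-09). With either 6 h array or 24 h array 1 left out, 12 members passed, with array weights 6, with the compared arrays alone 3, and with the signals as deposited 27 were lower and 0 higher (58.7% lower, against 36.3% of all genes).

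**Figure D3:**
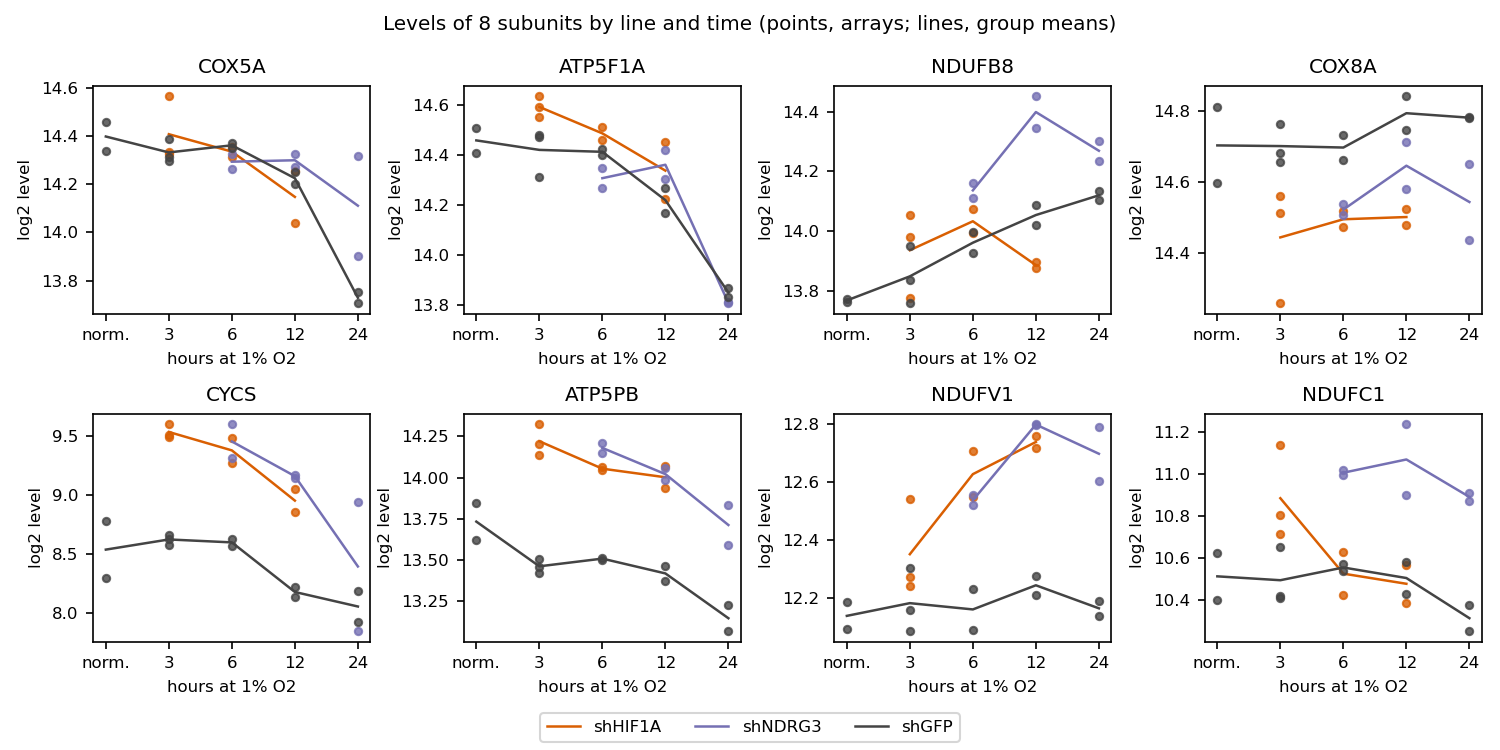
Log2 levels (y axis, own scale per panel) of 8 subunits by hours at 1% O2 (x axis, norm. for normoxia), with a point per array and lines through group means for shHIF1A, shNDRG3 and shGFP. ATP5PB and CYCS lie above shGFP in shHIF1A at 3 h to 12 h and in shNDRG3 at 6 h and 12 h, COX5A and ATP5F1A are at their lowest at 24 h, NDUFC1 is high in shNDRG3, COX8A lies lower in both knockdown lines, and the shGFP rise of NDUFB8 is one that the signals as deposited do not show.

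The knockdown lines were compared with each other at 6 h and 12 h, where both were measured. In shHIF1A, 1 member was higher and 6 were lower than in shNDRG3 (2.17% and 13%, against 8.52% and 7.25% of all genes). NDUFC1, an accessory subunit of the complex I membrane arm, had 10.42 and 10.63 at 6 h in shHIF1A, against 11.02 and 10.99 in shNDRG3. The 12 h levels were 10.39 and 10.57 in shHIF1A, against 11.24 and 10.90 in shNDRG3 (average -0.53 ± 0.10, adjusted p = 0.000338). The groups did not overlap at either time. NDUFB8, NDUFB6, NDUFA2, NDUFA6 and SDHD were also lower and NDUFC2 higher, which places 5 of the 6 lower members in complex I. The counts were 0 higher and 4 lower with the signals as deposited (8.7% lower, against 3.7% of all genes), 1 and 3 with median-centred arrays (6.52%, against 3.34%) and 0 and 10 with the 75th percentile (21.7%, against 8.17%), and with 1 array left out 2 to 5 were lower. The arrays did not overlap at either time for 2 members above and 12 below (14.2% and 13.6% of all genes). CYCS (-0.14 ± 0.15), ATP5PB (-0.07 ± 0.08), ATP5F1D (0.15) and UQCRC2 (-0.22) did not pass in this comparison.

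Some comparisons share no array and can be set side by side. They all use arrays of the same shGFP line, so they are not independent. A trait particular to that line cannot be told apart from an effect common to both knockdowns. Of the 14 members lower in shGFP after 24 h, 6 were higher in shHIF1A over 3 h to 12 h (42.9% of these and 50% of the 12 higher in shHIF1A): ATP5PB, CYC1, NDUFA10, NDUFA9, NDUFAB1 and NDUFB9. Among all genes the corresponding shares were 46.4% and 58.5%. Over pairs of an shHIF1A and an shNDRG3 comparison at different times, the members called higher in both were 5 for 3 h and 6 h (45.5% and 62.5% of each list, against 60.5% and 59.2% of all genes) and 8 for 3 h and 12 h (72.7% and 66.7%, against 57.4% and 50.5%). They were 5 for 3 h and 24 h (45.5% and 55.6%, against 53% and 36.6%) and 6 for 6 h and 12 h (100% and 50%, against 69.4% and 43.3%). They were 4 for 6 h and 24 h (66.7% and 44.4%, against 63.8% and 31.2%), 6 for 12 h and 6 h (85.7% and 75%, against 59.3% and 53.5%) and 3 for 12 h and 24 h (42.9% and 33.3%, against 66% and 42%). The first time is that of shHIF1A. ATP5PB was in each of these sets. Without shHIF1A 3 h array 2, the pairs with 3 h shared 3, 3 and 2 members with shNDRG3 at 6 h, 12 h and 24 h, from 3 higher in shHIF1A. These were 100%, 100% and 66.7% of the shHIF1A list, against 68.8%, 67.9% and 59.6% among all genes. Of the shNDRG3 lists they were 27.3%, 23.1% and 18.2%, against 50.4%, 44.7% and 31.3% among all genes. Leaving out either shNDRG3 24 h array leaves 1 array in that group, so shared calls are not counted that way.

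The rest of the mitochondrial programme was read from fixed lists of genes. Among all genes 24.2% were lower and 21.1% higher at 24 h, 19.2% were higher and 18.8% lower in shHIF1A, and 22.7% were higher and 20.9% lower in shNDRG3. Subunits of the chain that are not members numbered 30, of which 12 (40%) were lower and 1 higher at 24 h. Those with the smallest p were the c-ring genes of ATP synthase ATP5MC1 (-1.78 ± 0.17) and ATP5MC3 (-0.86 ± 0.13) and the complex I subunit NDUFB7 (-0.64 ± 0.10). In shHIF1A, 9 (30%) were higher and 4 lower. In shNDRG3, 12 (40%) were higher and 2 lower, with ATP5MC1 at 0.80 ± 0.10. ATP5MF, another ATP synthase subunit, was the lowest in shHIF1A at -0.73 ± 0.06. The 13 mitochondrially encoded subunits were not analysed here.

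Assembly factors are genes whose products build the complexes without staying in them. Of 16 complex I assembly factors, 11 were lower after 24 h and 0 higher (median -0.61), with NDUFAF4 at -2.02 ± 0.13 and NDUFAF2 at -1.53 ± 0.13. In shHIF1A 9 were higher and 1 lower, and in shNDRG3 10 and 0. Of 22 complex IV assembly factors, 11 were lower and 2 higher at 24 h (median -0.41), among them COA7 (-2.72 ± 0.19), whereas 1 of the 9 complex IV subunits was lower. With the signals as deposited 8 of these 9 subunits were lower, as were 59.3% of all genes, so this contrast depended on the scaling. In shNDRG3, 12 of the 22 were higher, among them LRPPRC (0.68 ± 0.07), which stabilises mitochondrial messenger RNA, and in shHIF1A 6 (27.3%) were higher and 1 lower. For complexes II and III, 4 of 11 factors were lower at 24 h and 1 higher, with BCS1L, which inserts the Rieske protein, at -1.76 ± 0.14. It was at 0.63 ± 0.08 in shHIF1A and 0.93 ± 0.08 in shNDRG3, where 5 of the 11 were higher and 0 lower in shHIF1A, and 8 higher and 2 lower in shNDRG3. The 5 complex V factors were divided, with 1 higher and 1 lower at 24 h, and ATPAF2 at -0.72 ± 0.08 in shHIF1A.

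Mitochondrial ribosomes translate the subunits encoded in the organelle, and import brings in the nuclear-encoded ones. Of 76 mitochondrial ribosomal proteins, 58 were lower and 2 higher after 24 h (median -0.64), among them MRPL24 (-1.69 ± 0.10). In shHIF1A 43 were higher and 5 lower, and in shNDRG3 52 and 1, with MRPL24 at 0.79 ± 0.06 and 0.81 ± 0.06. Of 25 import genes, 19 were lower and 1 higher at 24 h, among them TIMM10 (-2.53 ± 0.12), and 16 and 19 were higher in shHIF1A and shNDRG3 with 0 lower. Of 17 genes for mitochondrial DNA maintenance and transcription, 10 were lower and 3 higher at 24 h. The transcription factor TFB2M gave -1.96 ± 0.13 there, 1.03 ± 0.07 in shHIF1A and 1.05 ± 0.07 in shNDRG3, where 9 and 8 of the list were higher and 1 lower in each. Of 15 TCA cycle and pyruvate dehydrogenase genes, 8 were lower and 1 higher at 24 h, with citrate synthase (CS) at -1.08 ± 0.12, and CS was at 0.50 ± 0.07 in shHIF1A and 0.70 ± 0.07 in shNDRG3. Under the 3 scalings without quantile normalisation, 60 to 73 ribosomal proteins were lower at 24 h (24.7% to 59.3% of all genes), with medians of -1.26 to -0.77. There 44 to 49 were higher in shHIF1A (19.3% to 20.5% of all genes) and 41 to 58 in shNDRG3 (18.1% to 25.8%). With the signals as deposited, 59.3% of all genes were lower at 24 h. So were 28 of the 30 other subunits of the chain and 13 of the 15 genes of the TCA cycle list. Of the assembly factors, 10 of 11 for complexes II and III, 19 of 22 for complex IV and 4 of 5 for complex V were lower.

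Tissue isoforms of subunits and genes known for exchanging or regulating subunits in hypoxia formed another list, of which 9 of 15 were measured. NDUFA4L2 and COX4I2, known for such exchange, and MIR210HG were not analysed here. At 24 h the protease LONP1, which degrades a complex IV subunit in hypoxia, was higher (1.08 ± 0.11, adjusted p = 1.4e-08), as were the testis-type subunit COX6B2 (0.99 ± 0.13) and the ATP synthase inhibitor ATP5IF1 (0.74, adjusted p = 0.00217). HIGD1A, a small protein that acts on complex IV, was lower (-0.94 ± 0.13). COX6A2, HIGD2A, ISCU, PDK1 and UQCRHL lay between -0.14 and 0.22 and did not pass. The median of these 9 genes was 0.19, but with the signals as deposited it was -0.18, so the direction of the list depended on the scaling. With those signals 2 were higher and 4 lower (7.2% and 59.3% of all genes). In shHIF1A, ATP5IF1 (-0.66), COX6B2 (-0.36) and LONP1 (-0.20) were lower and the others did not pass. In shNDRG3, COX6B2 (-0.91) and ATP5IF1 (-0.43) were lower and LONP1 (0.32) and PDK1 (0.24, adjusted p = 0.0378) higher. The mitophagy receptors BNIP3L (3.54 ± 0.14) and BNIP3 (2.46 ± 0.11) were higher at 24 h. BNIP3 was lower in shHIF1A (-1.25 ± 0.06) and did not pass in shNDRG3 (0.05), and BNIP3L was lower in both, at -0.77 ± 0.08 in shHIF1A and -0.22 ± 0.08 in shNDRG3 (adjusted p = 0.0291).

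**Figure D4:**
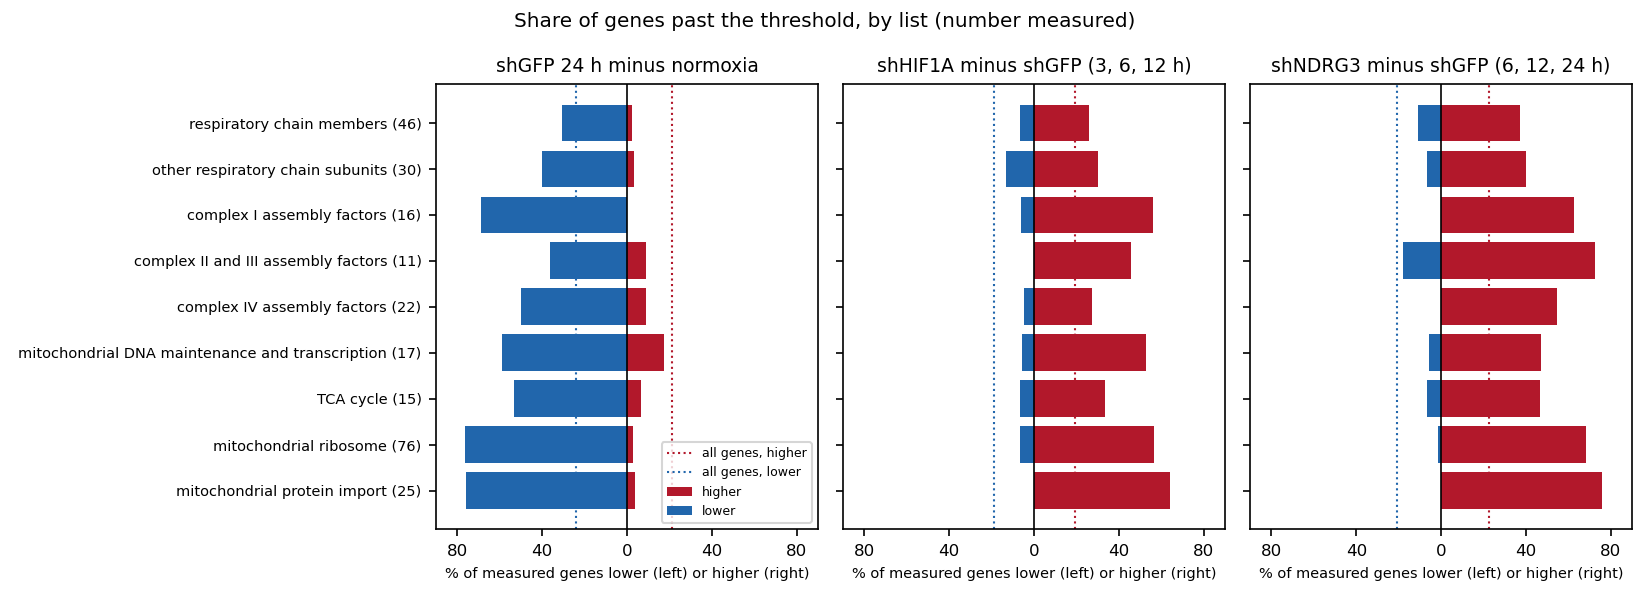
Percentage of measured genes of each list (rows, number measured in brackets) that were lower (left of 0) or higher (right of 0) at an adjusted p under 0.05, in 3 comparisons (panels). Dotted lines give the same percentages over all genes. At 24 h the blue bars of the mitochondrial ribosome (58 of 76) and import (19 of 25) are longer than that of the respiratory chain members (14 of 46).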

How the data were processed

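RNA of 24 samples was measured on bead arrays with 47231 probes. The deposited values are intensity, one signal per probe and array from 52.6 to 59613, and for background correction or normalisation by the authors the step is not given in the sources used here. Deposited signals differed in median between arrays and were taken to log2 and quantile-normalised with limma 3.58.1 in R 4.3.3. Probes brighter than the median of the array in 2 or more arrays were kept (31100 probes), and each gene took its brightest kept probe. Gene symbols are those of the platform annotation (30113 probes with 1 symbol, 8 with several and 17110 not listed), and 30074 entries matched current gene records.

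A model of 11 group means was fitted in limma to all 24 arrays (13 residual degrees of freedom, 9.74 prior), with Benjamini-Hochberg adjustment over 15246 genes. Knockdown averages weight times equally. Samples were grouped by their titles. Replicate numbers come from the titles too, and same-numbered arrays of matched groups deviated from their group means with correlations of -0.10 to 0.08, so they were not paired. The procedure was tested on simulated data.

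The members and lists were chosen with earlier results of these data known. The members named were, per complex, the 2 highest and 2 lowest past the threshold, or the 2 with the smallest p where none passed, and at single times the highest and lowest. In the other lists up to 3 genes with the smallest p were named. Any further gene was chosen after its values were seen. Alternatives were the signals as deposited, median centring, scaling to the 75th percentile, normexp with offset 50, other probe filters, the mean of a gene's probes, array weights (statmod 1.5.0), a trended robust prior, a replicate block, fits of the compared arrays alone and leaving out each array.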

Additional observations from a re-analysis of the deposited data

Results flagged for a closer look

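The difference between shNDRG3 and shGFP changed between 6 h and 24 h for NDUFC2, an accessory subunit of the complex I membrane arm, by 0.54 ± 0.17 on the log2 scale (interaction test in limma, adjusted p = 0.0375). At 6 h NDUFC2 had log2 levels of 7.16 and 7.35 in shNDRG3, against 7.91 and 7.74 in shGFP, and at 24 h 7.34 and 7.39 in shNDRG3, against 7.37 and 7.42 in shGFP. The groups lay apart at 6 h and almost coincided at 24 h. The gene lay close to the array median, and the call was lost without shNDRG3 24 h array 2, under 2 scalings, with array weights and with the compared arrays fitted alone.

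The shHIF1A and shNDRG3 lines differed directly at 6 h and 12 h for 7 members by limma's test of the difference, as shHIF1A minus shNDRG3. NDUFC1 gave -0.53, SDHD -0.51, NDUFB6 -0.35, NDUFB8 -0.31, NDUFA2 -0.29, NDUFA6 -0.25 and NDUFC2 0.28. NDUFC1 and NDUFB8 kept their calls under all alternatives. SDHD had 10.50 and 10.55 at 6 h in shHIF1A, against 11.23 and 11.09 in shNDRG3, and 10.34 and 10.60 at 12 h in shHIF1A, against 10.92 and 10.79 in shNDRG3. Its arrays did not overlap at either time, but its call was lost with the signals as deposited, with median-centred arrays and with any of 7 single arrays left out. NDUFA2 was lost in 6, NDUFA6 in 8, NDUFB6 in 4 and NDUFC2 in 7 alternatives.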

How the results depend on the processing

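Of 59 member calls, 38 were kept under every alternative tried for them. Of 1239 recomputed single results 1104 kept direction and call, 134 lost the call and 1 reversed, NDUFB8 at 24 h, which was -0.11 with the signals as deposited. The cause was not tested in any of these cases. With the signals as deposited, 0 members were higher and 43 lower at 24 h, 18 passed at 12 h, 1 was lower in shHIF1A on average and 3 passed at 6 h. Of all genes 3.92% were higher and 7.69% lower in shHIF1A at 6 h. In shNDRG3 2 were lower on average and 7 passed at 12 h, where 7.08% of all genes were higher and 13% lower. The change of the shNDRG3 difference gave 0 calls, shHIF1A against shNDRG3 0 higher, shGFP 24 h against 6 h 31, shGFP 12 h against 3 h 2 (1 in the chosen fit) and shHIF1A 12 h against 3 h 20 (4 in the chosen fit). At 12 h against 3 h, 4.26% of all genes were higher and 18.8% lower in shGFP, and 3.21% and 27.4% in shHIF1A.

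With median-centred arrays, 0 were higher at 24 h (13.8% of all genes) and 2 passed at 12 h (8.91% higher and 10.7% lower). In shHIF1A 1 was lower on average (15.3%) and 4 passed at 6 h (4.67% and 7.67%). In shNDRG3 2 were lower on average (20.4%), 5 passed at 6 h (7.44% and 12%) and 7 at 12 h (7.46% and 13.5%). In shHIF1A against shNDRG3 3 were lower (3.34%). The 12 h against 3 h counts were 0 in shGFP (8.81% and 6.01%) and 1 in shHIF1A (7.25% and 8.87%). With the 75th percentile, 2 passed at 12 h of hypoxia (11.5% of all genes higher and 12.5% lower) and 1 was lower in shHIF1A on average (17%). In shNDRG3 30 were higher and 2 lower (25.8% and 18%), and 15 passed at 6 h (14.3% and 11.5%). In shHIF1A against shNDRG3 0 were higher and 10 lower (7.31% and 8.17%). The change of the shNDRG3 difference gave 0 (4.7% and 3.9%). The 12 h against 3 h counts were 9 in shHIF1A (7.9% and 13.9%) and 0 in shGFP (8.26% and 11.7%).

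Member counts under array weights, compared arrays alone, arrays left out and the settings below stand without shares of all genes. A change in such a count cannot be told apart from a change in how many genes passed. Array weights gave 2 higher at 24 h, 6 lower in shHIF1A on average, 16 calls in shNDRG3 at 6 h and 2 at 24 h. They gave 2 higher and 11 lower in shHIF1A against shNDRG3, 1 and 0 calls for the changes of the shHIF1A and shNDRG3 differences, and 6 for shNDRG3 24 h against 6 h. For 12 h against 3 h they gave 9 in shHIF1A and 5 in shGFP. Fits of the compared arrays alone gave 2 higher at 24 h, 2 calls at 12 h, 6 in shHIF1A at 3 h, and in shNDRG3 14 at 6 h and 2 at 24 h. They gave 2 higher and 11 lower in shHIF1A against shNDRG3, 0 for the change of the shNDRG3 difference and 3 for shNDRG3 24 h against 6 h. For 12 h against 3 h they gave 2 in shHIF1A and 4 in shGFP.

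The mean of a gene's probes gave 1 call at 3 h, 1 at 6 h, 5 lower in shHIF1A on average and 0 for shGFP 12 h against 3 h. Requiring a probe above the median in all arrays gave 5 lower in shHIF1A and 2 for shGFP 12 h against 3 h, the trended robust prior gave 5 lower in shHIF1A, and normexp or no filter gave 0 for shGFP 12 h against 3 h. The replicate block gave 0 for shGFP 12 h against 3 h and moved no other count of members by over 1.5 times.

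With each array left out in turn, 1 was higher and 11 to 13 lower at 24 h, 0 passed at 3 h and 6 h and 0 to 2 at 12 h. In shHIF1A 11 to 12 were higher and 2 to 6 lower on average, with 3 to 14 calls at 3 h, 1 to 3 at 6 h and 5 to 6 at 12 h. In shNDRG3 14 to 17 were higher and 2 to 5 lower, with 4 to 6 calls at 6 h, 7 to 9 at 12 h and 7 to 14 at 24 h. In shHIF1A against shNDRG3 0 to 1 were higher and 2 to 5 lower. The changes of the differences gave 0 in shHIF1A and 0 to 3 in shNDRG3. The counts were 7 for shGFP and 12 to 17 for shNDRG3 at 24 h against 6 h, and 0 to 1 for shGFP and 1 to 6 for shHIF1A at 12 h against 3 h. A group left with 1 array was assumed to vary like the others. Counting NDUFA4 with complex I gave no value, since it was not measured. NDUFA5, NDUFC2 and NDUFS1 lay under 1.5 times the array median in at least 1 group, where signal limits what can be seen.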
